A study of Yarrowia lipolytica with 9 samples.

Results

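The 100 most abundant transcripts of the control strain of Yarrowia lipolytica, an oil-accumulating yeast, were followed in 2 strains with mutated copies of Yl-SPT15. They were the 100 transcripts with a RefSeq mRNA accession (XM_) whose mean FPKM over the 3 control samples was highest, out of 5959 such transcripts and 6145 features in all. FPKM is the number of fragments counted on a transcript per kilobase of its length and scaled to the total counted in the sample. 3 transcripts were left out by the rule, and 0 of them lay above the lowest of the 100. A further 8 features above that level carried only a number given by the authors and were not eligible. Because control values chose the transcripts, their level in the control is a description, and so is every difference from the control below. The difference in level between Yl_5_2 and Yl_5_3 is taken without control values. The control samples still enter its scaling and its p-values, through factors and a fit shared by all 9 samples.

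The 3 strains came from ATCC 201249. All carried a heterologous beta-carotene pathway and, in addition to the native gene, extra Yl-SPT15 expression cassettes integrated at the GUT2 site. The paper reports that GUT2 expression was partly reduced in all of them. Yl_5_2 was a deep yellow clone with mutations in the first and the fifth cassette, and Yl_5_3 was a light yellow clone with a mutation in the second cassette. Yl_5_1 was the control, which the labels call ctrl, and its cassettes held the unmutated sequence. Yl_5_2 and Yl_5_3 each came from 1 colony picked by eye, so each stands for 1 clone. A change special to that clone cannot be told apart from a change due to its cassettes. How Yl_5_1 was picked is not stated. The 9 samples, 3 of each strain, were taken after 96 h in flasks at 28 °C and 250 rpm. The labels do not say that samples of a strain came from separate cultures, so the p-values measure the spread between these samples, which may be technical.

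SPT15 of budding yeast encodes the TATA-binding protein, which sits at promoters and helps to place RNA polymerase at the start of a gene. In yeasts the most abundant mRNAs usually encode ribosomal proteins, translation factors, glycolytic enzymes, histones, heat-shock proteins and small proteins of mitochondria and cell wall, many of them short. The sources used here pair the accessions with locus tags of strain W29 and not with products, so no such role is assigned to any of the 100 transcripts. A locus tag was found for 80 of them, and 20 are known by accession only. No transcript was identified as Yl-SPT15 here.

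Total counts per sample lay between 17771507 and 23288547. Each of the 100 transcripts passed the filter on low counts, and the lowest count of any of them in any sample was 2479. Counting error was not set against the spread between samples for each transcript. The factors that scale the samples to each other by the trimmed mean of M-values (TMM) lay between 0.952 and 1.05. Samples of the same strain differed by more than counting noise, with a chi-square per degree of freedom of 3.37 to 13.8. Counts give a transcript's part of the library, so less of a transcript per cell and more of all others cannot be told apart.

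The control levels of the 100 transcripts spanned a 13.3-fold range. XM_501628.1 (YALI1_C12642g) was highest with a mean of 22595 FPKM, the 10th transcript had 9309 FPKM and the median transcript 2571 FPKM. The lowest of the 100, XM_499604.1, had 1696 FPKM, which was 37.0-fold above the median of all 5959 accessioned transcripts (45.9 FPKM). The levels thus fell steeply at the top and flattened towards the limit, and the 10 highest held 34.6% of the FPKM summed over the 100. Just inside the limit lay XM_501139.1 (1709 FPKM), XM_503943.1 (1697 FPKM) and XM_499604.1. Just outside it lay XM_502667.1 (1685 FPKM), XM_002143029.1 (1648 FPKM) and XM_505036.1 (1646 FPKM), so no gap in level separates the 100 from the next.

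**Figure D1:**
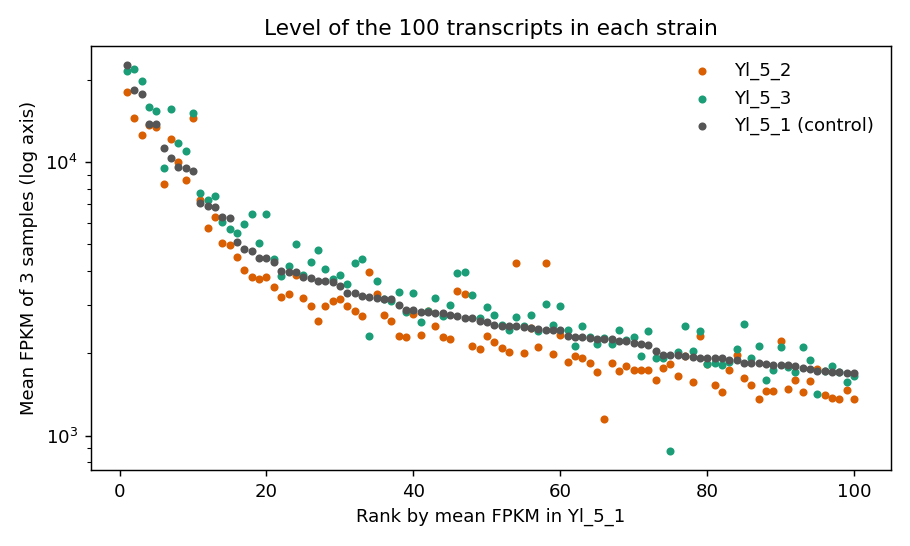
Mean FPKM (log axis) of the 100 transcripts in each strain against their rank in the control, with a point for each transcript and strain. Control levels fell from 22595 FPKM at the first rank to 1696 FPKM at the last, and the Yl_5_2 points lay mostly below the control points.

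Short coding sequences prevailed among the 100. Their coding length had a median of 427.5 bases (quartiles 319.5 and 679.5, range 78 to 3171), against a median of 1239 bases (quartiles 798 and 1827) over the 5951 accessioned transcripts whose length could be computed. Of the 100, 69 were under 600 bases long, against 14.3% of all accessioned transcripts, and 20 were under 300 bases, against 2.86%. At the long end, 4 reached 1500 bases. FPKM divides by length, so the rule itself favours short transcripts at a given count. The reads were 150 bases long. In 3 of the 100 the coding sequence was shorter than a read, with XM_002142951.1 at 78 bases the shortest. The FPKM and rank of these 3 are therefore uncertain. How far the same doubt reaches into the other transcripts under 300 bases was not tested. The 100 transcripts with the highest mean control CPM (counts scaled to the sample's total but not divided by length) had a median length of 1075.5 bases and only 26 under 600 bases, and 56 of them were also among the 100 chosen by FPKM. Another mark of the set is the accession series XM_002, which holds 147 of all accessioned transcripts and 12 of the 100, whose coding lengths lay between 78 and 303 bases.

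The 100 transcripts took 18.3%, 18.9% and 17.5% of all counts in the 3 Yl_5_2 samples. They took 22.5%, 22.2% and 22.8% in the Yl_5_3 samples and 21.1%, 21.1% and 20.4% in the Yl_5_1 samples. The 3 strains did not overlap, with Yl_5_3 highest and Yl_5_2 lowest. The means were 18.2% ± 0.703 in Yl_5_2, 22.5% ± 0.297 in Yl_5_3 and 20.9% ± 0.398 in Yl_5_1 (SD, n = 3 each), so the share in Yl_5_2 was 0.810 times that in Yl_5_3 and 0.872 times that in Yl_5_1. With 3 samples against 3 an exact permutation test cannot go below p = 0.10, and none was run on this summed value.

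XM_501628.1 alone took 2.50% ± 0.0572 of all counts in Yl_5_2, 2.98% ± 0.0328 in Yl_5_3 and 3.12% ± 0.0198 in Yl_5_1. On this scale of total counts Yl_5_3 was below the control, while with TMM factors its samples overlapped with the control (log2 fold change -0.01, SE 0.05). Without it the other 99 took 15.7% in Yl_5_2, 19.5% in Yl_5_3 and 17.8% in Yl_5_1, so the order of the strains did not rest on the most abundant transcript. The 10 highest together took 6.11% ± 0.246 in Yl_5_2, 7.68% ± 0.122 in Yl_5_3 and 7.02% ± 0.115 in Yl_5_1. The lower ranks repeated the order of the strains. Control ranks 51 to 100 took 6.57% ± 0.136 in Yl_5_2, 7.83% ± 0.0614 in Yl_5_3 and 7.52% ± 0.0521 in Yl_5_1. The 20 transcripts under 300 bases were an exception: they took 2.20% to 2.65% of counts in Yl_5_2, 2.95% to 3.09% in Yl_5_3 and 2.40% to 2.65% in Yl_5_1, and Yl_5_2 overlapped with Yl_5_1. The other 80 took 15.8% in Yl_5_2, 19.4% in Yl_5_3 and 18.3% in Yl_5_1. On the scale of summed FPKM, which weights short transcripts more, the 100 held 34.1% ± 1.17 in Yl_5_2, 40.0% ± 0.383 in Yl_5_3 and 37.2% ± 0.585 in Yl_5_1.

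**Figure D2:**
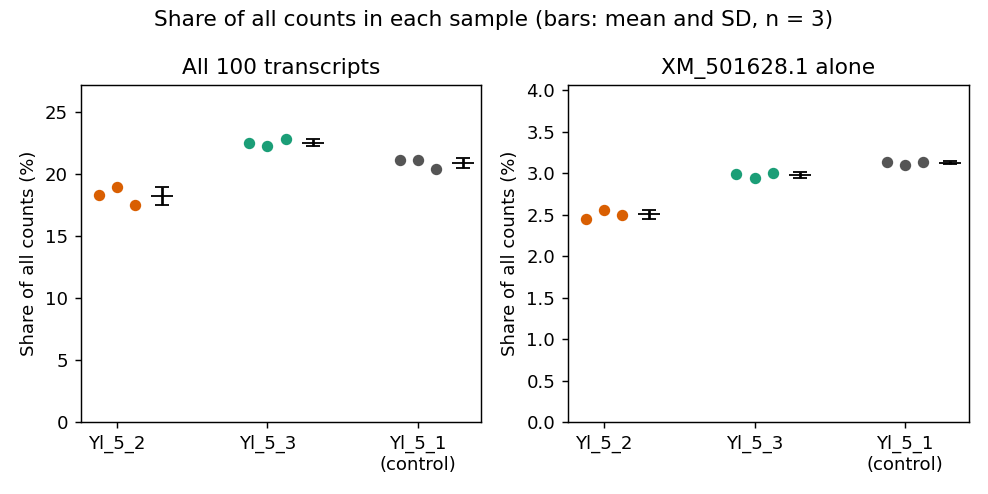
Percent of all counts taken by the 100 transcripts (left) and by XM_501628.1 alone (right) in each sample (points) of Yl_5_2, Yl_5_3 and Yl_5_1, with the mean and SD of the 3 samples as bars. For the whole set Yl_5_2 samples sit between 17.5% and 18.9%, Yl_5_3 samples between 22.2% and 22.8% and Yl_5_1 samples between 20.4% and 21.1%.

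The 2 mutant strains differed from each other across nearly the whole set. Between Yl_5_2 and Yl_5_3, 90 of the 100 transcripts were lower in Yl_5_2 and 5 were higher at an adjusted p under 0.05 (edgeR quasi-likelihood test, Benjamini-Hochberg adjustment over all 6037 features tested). Over all features tested, 67.4% were called in this comparison, 36.5% as higher and 30.9% as lower in Yl_5_2, so 90% of the set were lower in Yl_5_2, against 30.9% of all features. In CPM with TMM factors, the scale of all such counts here, the samples of Yl_5_2 lay wholly below those of Yl_5_3 for 91 transcripts, wholly above for 5 and overlapped for 4, while 72.1% of all features tested did not overlap. Most differences were small: the median log2 fold change was -0.41 (quartiles -0.50 and -0.32), against 0.03 over all features tested, and 1 transcript differed by more than 2-fold and 19 by more than 1.5-fold. Scaled by total counts and not by TMM, the median became -0.29 for the 100 and 0.16 for all features, a shift of all features by more than 0.1, and relative to it the set stayed lower in Yl_5_2.

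XM_502357.1 (YALI1_D04128g) was furthest lower. Its level was 1179, 1115 and 1146 FPKM in Yl_5_2, against 2300, 2343 and 2188 FPKM in Yl_5_3, with a log2 fold change of -1.12 (SE 0.04, edgeR adjusted p = 1.22e-12). It lay at 2355, 2208 and 2178 FPKM in Yl_5_1, so it was the Yl_5_2 samples that stood apart from both other strains. XM_501745.1 (YALI1_C16851g) gave 2669, 2710 and 2488 FPKM in Yl_5_2, against 4686, 4733 and 4859 FPKM in Yl_5_3 (log2 fold change -0.99, SE 0.05, edgeR adjusted p = 1.69e-11). Here the control lay between the mutants, at 3596, 3783 and 3640 FPKM. XM_503675.1 (YALI1_E09438g) reached 3809, 3823 and 3733 FPKM in Yl_5_2, against 6376, 6593 and 6421 FPKM in Yl_5_3 (log2 fold change -0.90, edgeR adjusted p = 3.17e-11), with the control at 4343, 4681 and 4326 FPKM. XM_002143076.1, a coding sequence of 135 bases, had 3719, 3748 and 3971 FPKM in Yl_5_2 and 6063, 6612 and 6667 FPKM in Yl_5_3 (log2 fold change -0.88, edgeR adjusted p = 1.28e-10). XM_002143001.1 (YALI1_C26332g) completed the 5 furthest lower with a log2 fold change of -0.82 (edgeR adjusted p = 2.08e-07). In none of these 5 did a Yl_5_2 sample overlap with a Yl_5_3 sample.

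The 5 transcripts higher in Yl_5_2 than in Yl_5_3 were exceptions to the set. XM_002143055.1, a coding sequence of 159 bases, had 2087, 1873 and 1517 FPKM in Yl_5_2, against 943, 819 and 877 FPKM in Yl_5_3 (log2 fold change 0.93, SE 0.12, edgeR adjusted p = 2.57e-04). The control had 2011, 1873 and 2019 FPKM, so for this transcript Yl_5_3 stood apart, at 0.467 times the control. XM_503410.1 had 4075, 4373 and 3474 FPKM in Yl_5_2, against 2316, 2261 and 2385 FPKM in Yl_5_3 (log2 fold change 0.65, SE 0.09, edgeR adjusted p = 1.50e-04), and its control values of 3320, 3485 and 2858 FPKM overlapped with none of the Yl_5_3 values. XM_500177.1 (YALI1_A17957g) gave 4214, 4480 and 4179 FPKM in Yl_5_2, against 2927, 2653 and 2565 FPKM in Yl_5_3 (log2 fold change 0.53, edgeR adjusted p = 8.31e-06). XM_502154.1 (YALI1_C31549g) gave 4578, 4599 and 3632 FPKM in Yl_5_2, against 3027, 3054 and 3018 FPKM in Yl_5_3, and its call was close to the threshold (log2 fold change 0.37, SE 0.10, edgeR adjusted p = 1.32e-02). Without Yl_5_2 sample 2 its adjusted p was 0.051. In XM_504379.1 (YALI1_E29959g) the difference was small but the samples were tight, with 1750, 1808 and 1717 FPKM in Yl_5_2 and 1428, 1406 and 1424 FPKM in Yl_5_3 (log2 fold change 0.18, edgeR adjusted p = 7.12e-04). The 5 transcripts not called in this comparison, XM_002142951.1, XM_002143011.1, XM_505423.1, XM_501509.1 and XM_002143005.1, were named after their values were seen, were all under 300 bases and had log2 fold changes between -0.38 and -0.05.

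The 10 most abundant control transcripts were mostly lower in Yl_5_2 than in Yl_5_3. XM_501628.1, with 1383 bases also the longest of them, had 17691, 18518 and 18090 FPKM in Yl_5_2, against 21641, 21285 and 21734 FPKM in Yl_5_3 and 22677, 22430 and 22680 FPKM in Yl_5_1. It was lower in Yl_5_2 than in Yl_5_3 by a log2 fold change of -0.38 (SE 0.05, edgeR adjusted p = 1.46e-06) and ranked first in Yl_5_2, second in Yl_5_3 and first in Yl_5_1. XM_502776.1 (YALI1_D16249g, 666 bases) had 14469, 15135 and 13889 FPKM in Yl_5_2, against 21644, 21738 and 22416 FPKM in Yl_5_3 and 18676, 18152 and 18126 FPKM in Yl_5_1. Its difference between the mutants was larger (log2 fold change -0.72, edgeR adjusted p = 1.11e-09), and it was the most abundant of the set in Yl_5_3. XM_002143065.1 (YALI1_F03215g, 273 bases) had 12717, 13142 and 11909 FPKM in Yl_5_2, against 20091, 19177 and 20007 FPKM in Yl_5_3 and 17908, 18439 and 16835 FPKM in Yl_5_1 (log2 fold change between the mutants -0.78, edgeR adjusted p = 9.64e-10). In these last transcripts the control lay between the mutants without overlap.

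The other transcripts among the 10 highest had smaller differences between the mutants than XM_502776.1 and XM_002143065.1. XM_002143064.1 (YALI1_E41367g) had 13735, 15193 and 12080 FPKM in Yl_5_2, 16160, 14996 and 16431 FPKM in Yl_5_3 and 14404, 15425 and 11634 FPKM in Yl_5_1. All strains overlapped in FPKM, although in CPM with TMM factors the Yl_5_2 samples lay below the Yl_5_3 samples. The call between the mutants (log2 fold change -0.34, SE 0.12, edgeR adjusted p = 2.97e-02) was lost with total counts (adjusted p = 0.129), with limma (0.079) and without Yl_5_2 sample 1 or 3 or Yl_5_3 sample 1 or 3 (0.052 to 0.096). XM_002142951.1, the shortest of the 100 with 78 bases, had 10483, 8099 and 6327 FPKM in Yl_5_2, 10333, 9115 and 8976 FPKM in Yl_5_3 and 11660, 10165 and 11918 FPKM in Yl_5_1. Its Yl_5_2 samples scattered widely, and the mutants were not told apart (log2 fold change -0.32, SE 0.18, edgeR adjusted p = 0.174), although without Yl_5_2 sample 1 the adjusted p was 0.0067. XM_503076.1 (YALI1_D26051g), XM_505888.1 (YALI1_F33345g) and XM_499957.1 (YALI1_A10857g) were lower in Yl_5_2 by log2 fold changes of -0.32, -0.35 and -0.48. XM_002143013.1 (YALI1_D09712g) had 12090, 13185 and 11017 FPKM in Yl_5_2, 15640, 15466 and 15784 FPKM in Yl_5_3 and 10325, 11044 and 9599 FPKM in Yl_5_1, so that Yl_5_3 was far above both others and the lowest Yl_5_2 value lay just under the highest control value. XM_002143009.1 (YALI1_D06233g), the 10th, had 14702, 15842 and 13082 FPKM in Yl_5_2, 15454, 14647 and 15097 FPKM in Yl_5_3 and 9255, 10174 and 8498 FPKM in Yl_5_1. Both mutants were above the control and overlapped with each other, and their difference was only just called (log2 fold change -0.18, edgeR adjusted p = 4.92e-02), with an adjusted p of 0.54 under total counts and of 0.063 to 0.173 without Yl_5_1 sample 1, Yl_5_2 sample 1 or 3, or any 1 Yl_5_3 sample.

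**Figure D3:**
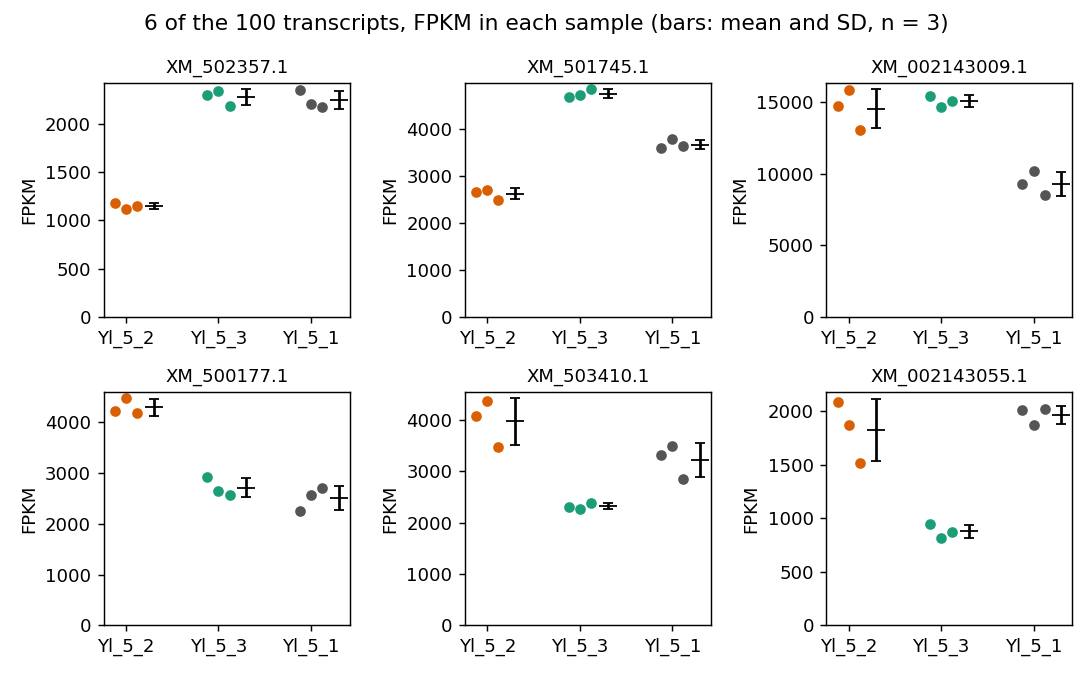
FPKM of 6 of the transcripts in each sample (points) of Yl_5_2, Yl_5_3 and Yl_5_1, with the mean and SD of the 3 samples as bars and each vertical axis starting at 0. The panels show transcripts with the control between the mutants, with 1 mutant apart from both other strains and with both mutants above the control.

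Against the control, Yl_5_2 was lower for most of the set. Its log2 fold change was negative for 90 of the 100 transcripts, with a median of -0.32 (quartiles -0.38 and -0.18, range -1.03 to 0.74), against -0.01 over all features tested. The edgeR test called 77, of which 7 rose and 70 fell, beside 57.4% of all features tested, 27.4% higher and 30.0% lower. The samples of Yl_5_2 lay wholly below those of Yl_5_1 for 69 transcripts and wholly above for 5, beside 61.4% of all features without overlap. Since control levels chose the set, nothing is read from these counts. With the set chosen on 1 control sample and compared without that sample, 66, 67 and 71 of the 100 fell in Yl_5_2, and 98, 98 and 97 of the transcripts chosen were the same. If the control samples are technical repeats, this split cannot remove the effect of the choice, so nothing is read from it either.

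Single transcripts differed in size. XM_502357.1 fell furthest, to 0.488 times its control level (log2 fold change -1.03, SE 0.04), and was the only 1 of the 100 to change by more than 2-fold in Yl_5_2. XM_002143065.1, XM_501745.1, XM_499793.1 and XM_499925.1 followed with log2 fold changes of -0.56, -0.55, -0.50 and -0.47. XM_499793.1 had 1417, 1424 and 1237 FPKM in Yl_5_2, against 1892, 1876 and 1746 FPKM in Yl_5_1, without overlap. The largest rises were those of XM_502154.1 and XM_500177.1. XM_502154.1 had control values of 2542, 2635 and 2147 FPKM (log2 fold change 0.74, SE 0.11), and XM_500177.1 of 2250, 2573 and 2701 FPKM (log2 fold change 0.71, SE 0.07), all below the Yl_5_2 values given above. XM_002143009.1 rose by 0.58 on the log2 scale, XM_505887.1 (YALI1_F33331g) by 0.24 and XM_503410.1 by 0.24. The call of XM_503410.1 was lost under 12 of the 23 other settings tried, with values of 0.16 to 0.26 without Yl_5_1 sample 1 or 3, Yl_5_2 sample 1 or 2 or any 1 Yl_5_3 sample. That of XM_002143013.1 (log2 fold change 0.17) was lost under 7, with values of 0.10 to 0.17 without Yl_5_1 sample 1 or 3 or Yl_5_2 sample 1 or 2. Settings that chose the set on 1 control sample repeat the fit without that sample, so these counts hold some fits more than once.

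Yl_5_3 lay above the control for most of the set, by less. The log2 fold change was positive for 83 transcripts, with a median of 0.14 (quartiles 0.04 and 0.26, range -1.10 to 0.76), against a median of -0.00 over all features tested. Of the 100, 42 rose and 3 fell, 45 in all, beside 55.3% of all features tested, 25.6% higher and 29.7% lower, and again nothing is read from the counts. The samples did not overlap for 64 transcripts, 58 above and 6 below the control, beside 63.3% of all features. Scaled by total counts only, the median was 0.07 (-0.07 over all features) with 33 of the 100 negative against 17 with TMM, and limma on log2(FPKM + 1) gave 0.08. With total counts 31 rose and 8 fell, which moved the share of rises among the calls to 79.5%, against 93.3% with TMM. With the set chosen on 1 control sample and compared without it, 40, 49 and 37 rose, and the limit given above for this split holds here too.

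XM_002143009.1 rose most in Yl_5_3 (log2 fold change 0.76, SE 0.07), followed by XM_002143013.1 (0.66, SE 0.06). XM_500328.1, with 267 bases, had 3905, 4000 and 3959 FPKM in Yl_5_3, against 2744, 2674 and 2651 FPKM in Yl_5_1, and XM_503675.1 and XM_505887.1 had log2 fold changes of 0.60 and 0.59. In Yl_5_2 the values of XM_500328.1 were 3207, 3508 and 3129 FPKM, between the other strains. The 3 transcripts that fell in Yl_5_3 were XM_002143055.1 (log2 fold change -1.10, SE 0.12), XM_503410.1 (-0.41, SE 0.09) and XM_504379.1 (-0.22, SE 0.04). All of them were among the 5 that were higher in Yl_5_2 than in Yl_5_3.

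Placed side by side, the comparisons with the control, which share their 3 control samples, sorted the set as follows. 45 transcripts fell in Yl_5_2 and were not called in Yl_5_3, beside 13.8% of all features tested, and 25 fell in Yl_5_2 and rose in Yl_5_3, beside 6.81%. 11 were not called in Yl_5_2 and rose in Yl_5_3 (7.85% of all features), and 10 were called in neither (21.3%). 6 rose in both strains (10.9%) and 0 fell in both (9.43%). 1 rose in Yl_5_2 and fell in Yl_5_3 (6.86%), 2 were not called in Yl_5_2 and fell in Yl_5_3 (13.4%), and 0 rose in Yl_5_2 and were not called in Yl_5_3 (9.61%). Since control levels chose the set, nothing is read from these shares either. By mean CPM with TMM factors, 74 of the 100 had the order Yl_5_3, Yl_5_1, Yl_5_2 from high to low, beside 23.02% of all features tested, and by mean FPKM 52 of the 100 had it, beside 14.0%. The difference between these counts comes with the TMM factors, which FPKM does not hold.

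The size of the difference changed along the ranks of control level. The median log2 fold change between Yl_5_2 and Yl_5_3 was -0.41 in the 100, -0.28 in the next 100 by control level, -0.14 in the 300 after them, -0.10 in the following 500 and -0.04 in the following 1000. It was 0.03 in the 2000 after those and 0.19 in the 1855 below them that passed the filter on low counts. With TMM factors the abundant and the scarce transcripts thus differed in opposite directions. Scaled by total counts, the median over all features tested moved from 0.03 to 0.16, so the rank where the sign changes depends on the scaling. In shares of a library, a lower part for some transcripts also means a higher part for others. In Yl_5_2 against Yl_5_1 the medians for the same bins were -0.32, -0.21, -0.14, -0.04, -0.02, -0.02 and 0.08, and in Yl_5_3 against Yl_5_1 they were 0.14, 0.05, 0.07, 0.05, 0.05, -0.02 and -0.09. Within the 100 there was little such gradient between the mutants, with medians of -0.37 at ranks 1 to 10, -0.42 at ranks 11 to 50 and -0.41 at ranks 51 to 100. Against the control the medians of the same ranks did differ, at -0.16, -0.32 and -0.35 in Yl_5_2 and at 0.27, 0.20 and 0.08 in Yl_5_3. Control values set the ranks and also enter these fold changes, so nothing is read from the trends against the control. Between the mutants, the limit of 100 thus cuts a trend that ran on beyond it.

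**Figure D4:**
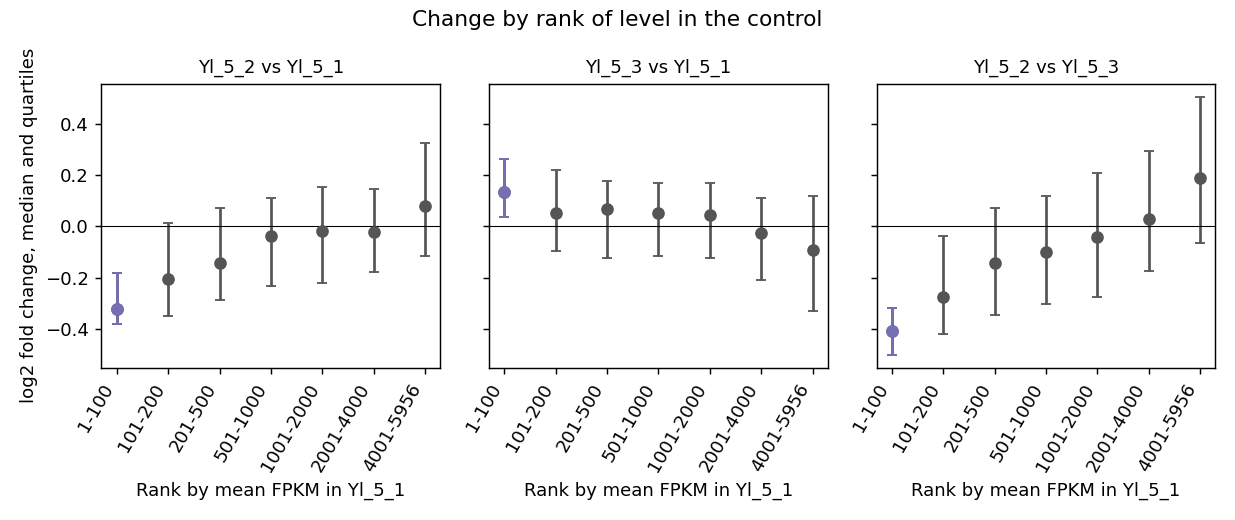
Median log2 fold change (points) with quartiles (bars) of transcripts binned by their rank of control level, for Yl_5_2 against Yl_5_1, Yl_5_3 against Yl_5_1 and Yl_5_2 against Yl_5_3, with the 100 transcripts in colour and all lower ranks in grey. Between the mutants, with TMM factors, the bin medians ran from -0.41 in the 100 to 0.19 at the lowest ranks.

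Length was not matched by a like gradient. Between Yl_5_2 and Yl_5_3 the median log2 fold change was -0.39 for the 20 transcripts under 300 bases, -0.45 for the 49 from 300 to under 600 bases and -0.39 for the 31 of 600 bases or more. Of these, 15 of 20, 49 of 49 and 31 of 31 were called, beside 67.4% of all features tested. The 753 other tested transcripts under 600 bases had a median of -0.02, and 63.1% of them were called. Across the 100, Spearman's rho of length with the log2 fold change was -0.02 for Yl_5_2 against Yl_5_3, -0.19 for Yl_5_2 against Yl_5_1 and -0.25 for Yl_5_3 against Yl_5_1. These are descriptions over transcripts of the same 9 libraries, not over independent replicates.

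The spread between samples of a strain was widest in Yl_5_2. The median coefficient of variation (CV) of CPM between samples of a strain was 6.75% in Yl_5_2, 2.89% in Yl_5_3 and 4.72% in Yl_5_1, against 4.65% in Yl_5_2, 3.63% in Yl_5_3 and 4.54% in Yl_5_1 over all features tested. The next 100 transcripts by control level had medians of 4.28% in Yl_5_2, 2.32% in Yl_5_3 and 3.93% in Yl_5_1, lower than the set in each strain. Within the set the median was lower in the longer classes. Under 300 bases the median CV was 12.5% in Yl_5_2, 4.64% in Yl_5_3 and 8.82% in Yl_5_1. From 300 to under 600 bases it was 7.76% in Yl_5_2, 2.94% in Yl_5_3 and 5.15% in Yl_5_1, and from 600 bases it was 3.61% in Yl_5_2, 2.07% in Yl_5_3 and 2.77% in Yl_5_1. The highest was 25.3% for XM_002142951.1 in Yl_5_2. Yl_5_2 sample 3 had the lowest share of counts in the 20 short transcripts (2.20%) as well as in the whole set (17.5%).

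**Figure D5:**
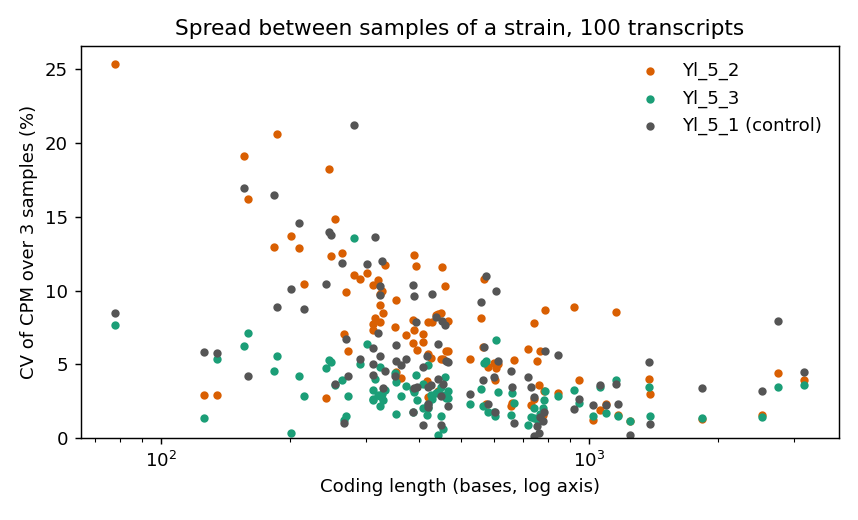
Coefficient of variation of CPM between the 3 samples of a strain (percent) against coding length (bases, log axis) for the 100 transcripts, with a colour for each strain. Transcripts under 300 bases had median values of 12.5% in Yl_5_2, 4.64% in Yl_5_3 and 8.82% in Yl_5_1.

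Most of the 100 stayed at the top in the mutants. Of the 100 highest accessioned transcripts of Yl_5_2, 88 were in the set, of those of Yl_5_3 91 were, and 85 transcripts were among the 100 highest of all 3 strains. The 12 that left the list in Yl_5_2 went no lower than rank 141 (XM_502357.1), and the 9 that left it in Yl_5_3 no lower than rank 189 (XM_002143055.1). The transcript that entered from furthest down was XM_500900.1 (YALI1_B19429g), at rank 99 in Yl_5_2 and rank 354 in Yl_5_1. XM_501607.1 (YALI1_C11862g) entered highest, at rank 34 in Yl_5_2 and rank 122 in Yl_5_1. Both were chosen after their values were seen.

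In the order of W29 locus tags, 4 pairs of the set were direct neighbours. In each pair the difference between Yl_5_2 and Yl_5_3 had the same direction, with log2 fold changes of -0.70 and -0.51 for XM_504425.1 and XM_504426.1, and of -0.82 and -0.69 for XM_002143001.1 and XM_501999.1. The other pairs were closer still, at -0.34 and -0.35 for XM_505887.1 and XM_505888.1, and -0.46 and -0.48 for XM_499956.1 and XM_499957.1. With 95 of the 100 negative in this comparison, most pairs drawn from the set share their sign.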

How the data were processed

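RNA of 3 strains, 3 samples each, was sequenced on an Illumina platform after library preparation with a NEBNext Ultra RNA kit. The authors deposited whole-number counts per feature, without normalization, and FPKM values of the same features. The deposited FPKM equal the count divided by a whole-number length and by the total count (within 0.01 bases for 6136 features), so they hold no other scaling between samples. The lengths of accessioned transcripts are multiples of 3 and are called coding lengths. The submitters' processing notes name HTSeq 0.6.1 and DESeq 1.18.0, and the aligner and genome build are not given in the sources used here.

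Counts were tested with edgeR 4.0.16 under R 4.3.3, by a quasi-likelihood F test with TMM scaling, robust dispersion and a strain term fitted to all 9 samples. Features needed 10 or more counts in 3 or more samples, which left 6037, and p-values were adjusted over them by Benjamini-Hochberg. Called means an adjusted p under 0.05. The standard error is the size of the log2 fold change over the square root of F. Rose and fell are used of called transcripts. The pipeline was run on simulated data in which a small part of the features changed in Yl_5_2, in random directions. In the real data most features were called, and between the mutants direction followed control level. The simulation therefore cannot show how the scaling behaves here. Alternatives were DESeq2 1.42.0, limma 3.58.1 on log2(FPKM + 1) and log2(FPKM + 0.1), other scalings, filters and set sizes, and leaving out each sample. Of the sample columns, 0 were left unused.

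The transcripts and lists were chosen with earlier results of these data known. Named were the 10 most abundant transcripts, the 5 largest rises and 5 largest falls of each comparison among called transcripts, and those just inside and outside the limit. Locus tags come from RefSeq assembly ASM176148v1, which matched 5430 accessions by number. It gives no products, so lists by product, promoter motifs and sequences were not used here.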

Additional observations from a re-analysis of the deposited data

How the results depend on the processing

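Leaving out each sample in turn, the number of the 100 called was 72 to 81 for Yl_5_2 against Yl_5_1 (52.7% to 56.5% of all features), 37 to 51 for Yl_5_3 against Yl_5_1 (48.8% to 57.1%) and 91 to 96 for Yl_5_2 against Yl_5_3 (62.6% to 68.5%), with medians of -0.36 to -0.26, 0.10 to 0.17 and -0.47 to -0.37 for these comparisons in turn. The share of counts then lay at 17.9% to 18.6% in Yl_5_2, 22.3% to 22.6% in Yl_5_3 and 20.7% to 21.1% in Yl_5_1. The median between the mutants was -0.29 with total counts and -0.29 with limma at either pseudocount. With total counts, 80 of the 100 were lower and 5 higher in Yl_5_2 than in Yl_5_3, beside 20.1% and 49.8% of all features. Under limma on log2(FPKM + 1), 81 were lower and 5 higher, beside 20.0% and 49.6%. The number called and the background thus moved more with the scaling than with any sample left out. The median of Yl_5_3 against Yl_5_1 was 0.21 for the 50 highest transcripts. The direction was less uniform for the 100 highest by CPM. Of these, 77 were lower and 12 higher in Yl_5_2 than in Yl_5_3 (30.9% and 36.5% of all features), with a median of -0.36. Against Yl_5_1, 66 fell and 10 rose in Yl_5_2 (30.0% and 27.4%), and 17 fell and 44 rose in Yl_5_3 (29.7% and 25.6%). The share of counts moved with the set by construction: it was 21.8% in Yl_5_2, 25.9% in Yl_5_3 and 24.5% in Yl_5_1 for the 100 highest by CPM, 11.6% in Yl_5_2, 14.7% in Yl_5_3 and 13.4% in Yl_5_1 for the 50 highest, 26.7% in Yl_5_2, 31.7% in Yl_5_3 and 29.9% in Yl_5_1 for the 200 highest, and 34.1% in Yl_5_2, 40.0% in Yl_5_3 and 37.2% in Yl_5_1 on summed FPKM, and in Yl_5_3 22.2% with the set from control sample 2 alone.

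No median or named fold change that was called changed direction. Of 1242 values of named transcripts, 1192 kept their side of the threshold, 39 lost it and 11 gained it. Fits shared by more than 1 setting are counted under each. The replicate numbers did not pair the samples (correlation of deviations -0.13 to 0.16 for the same number, -0.26 to 0.18 for others), and a fit with a replicate block called 80 of the 100 for Yl_5_2 against Yl_5_1 (56.8% of all features), 50 for Yl_5_3 against Yl_5_1 (54.1%) and 95 for Yl_5_2 against Yl_5_3 (66.9%). None of these transcripts was near the filter on low counts, since each had at least 2479 counts in every sample. The 3 samples per strain, with 1 clone for each mutant, limit what a difference between strains can be laid to.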
